A study of Homo sapiens with 18 samples.

Results

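The genes described here were the transcription factors, cadherins and partner genes that are most often read as a gauge of epithelial-mesenchymal transition (EMT): ZEB1, ZEB2, SNAI1, SNAI2, TWIST1, TWIST2, CDH1, CDH2, VIM and ESRP1. They were listed by symbol, and all 10 were found among the 21119 genes with a symbol in the count table. RNA was sequenced from 18 spheroid cultures of MDA-MB-231 cells, a human triple-negative breast cancer line, grown in Matrigel for 7 days. The cultures formed 6 groups of 3 in which the Notch ligand Jagged1 (gene JAG1) had been removed, restored or silenced. Jag1WT were parental cells. Jag1KO were cells in which exon 2 of JAG1 had been targeted with Cas9, used as a mixture of single-cell clones. Jag1KO + rescue were Jag1KO cells carrying a Jagged1 cDNA on pcDNA3.1, Jag1KO + ctrl were Jag1KO cells carrying the empty plasmid, and both of these had been selected with G418. The siCtrl and siJag1 groups were parental cells transfected with a control siRNA or a Jagged1 siRNA. Thus all cultures shared the same line and matrix, the 3 KO-derived groups shared the edited pool, and the 2 plasmid groups shared the drug selection. The 3 cultures of a group were labelled as biological replicates.

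In EMT, epithelial cells lose their junctions and polarity and gain motility. The zinc finger factors of the Snail family (SNAI1, SNAI2) and the ZEB family (ZEB1, ZEB2) bind E-box sequences and repress epithelial genes, while the helix-loop-helix factors TWIST1 and TWIST2 act in the same program. The classical readouts are E-cadherin (CDH1), the adhesion molecule of epithelial junctions, N-cadherin (CDH2), which often replaces it, and the intermediate filament protein vimentin (VIM). ESRP1 is an RNA-binding protein that maintains epithelial splice forms and is itself a target of ZEB repression. MDA-MB-231 is known as a mesenchymal-like line with little E-cadherin, and Notch ligands are known regulators of Snail and Slug, the products of SNAI1 and SNAI2.

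Each library held between 10326977 and 18321475 counted reads, with a median of 15162572. Levels are given as CPM, per-million counts, as deposited after scaling for library composition. The targeted gene separated as labelled in every library: JAG1 stood at 433, 585 and 522 CPM in Jag1WT against 116, 205 and 149 in Jag1KO, at 534, 657 and 646 in Jag1KO + rescue against 110, 134 and 147 in Jag1KO + ctrl, and at 441, 626 and 531 in siCtrl against 166, 203 and 131 in siJag1. The estrogen receptor ESR1 reached at most 0.136 CPM and the progesterone receptor PGR at most 1.77, while ERBB2 was between 32.5 and 60.0 CPM. Luminal epithelial markers were measured as well. KRT18 was 127 to 162 CPM, KRT19 95.8 to 457, KRT8 31 to 149, EPCAM 5.18 to 8.99, GATA3 5.25 to 11.5 and FOXA1 0.261 to 4.91. Among markers of other cell types, DCN, LUM and COL1A2 (fibroblasts), CDH5 (endothelium) and PTPRC (leukocytes) were at or near 0, while COL1A1 reached 10.0 CPM, KDR 16.9, PECAM1 15.1 and CD14 4.99. The libraries also differed in growth state within groups. The proliferation marker MKI67 stood at 302, 512 and 49.6 CPM in Jag1KO + ctrl replicates 1, 2 and 3, at 28.9, 207 and 289 in Jag1KO, and at 50.5, 434 and 60.5 in siJag1. In the groups with more JAG1 it was between 33.1 and 162 CPM.

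Per kilobase of transcript, VIM, SNAI2, ZEB1 and ZEB2 were above ESRP1 and CDH1, while SNAI1, CDH2, TWIST1 and TWIST2 were below ESRP1. VIM averaged 1033 RPKM over the 18 libraries (RPKM, the CPM divided by the transcript length in kilobases), and its CPM lay above that of 99.9% of all genes. SNAI2 and ZEB1 both averaged 16.0 RPKM, and ZEB2 averaged 3.34 RPKM. ESRP1 averaged 0.869 RPKM and SNAI1 0.616 RPKM, CDH2 0.0774 RPKM and CDH1 0.0289 RPKM. TWIST1 and TWIST2 had 1 read each in all libraries together, TWIST1 in Jag1KO + rescue replicate 1 and TWIST2 in Jag1KO + ctrl replicate 2. A count of 0 in 1 library allows a level of up to 0.164 to 0.291 on the per-million scale, counting error only, and 0 over all libraries together would allow 0.011. The EMT factors of this line under these conditions were therefore read from 4 transcripts, ZEB1, SNAI2, ZEB2 and, at a low level, SNAI1.

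**Figure D1:**
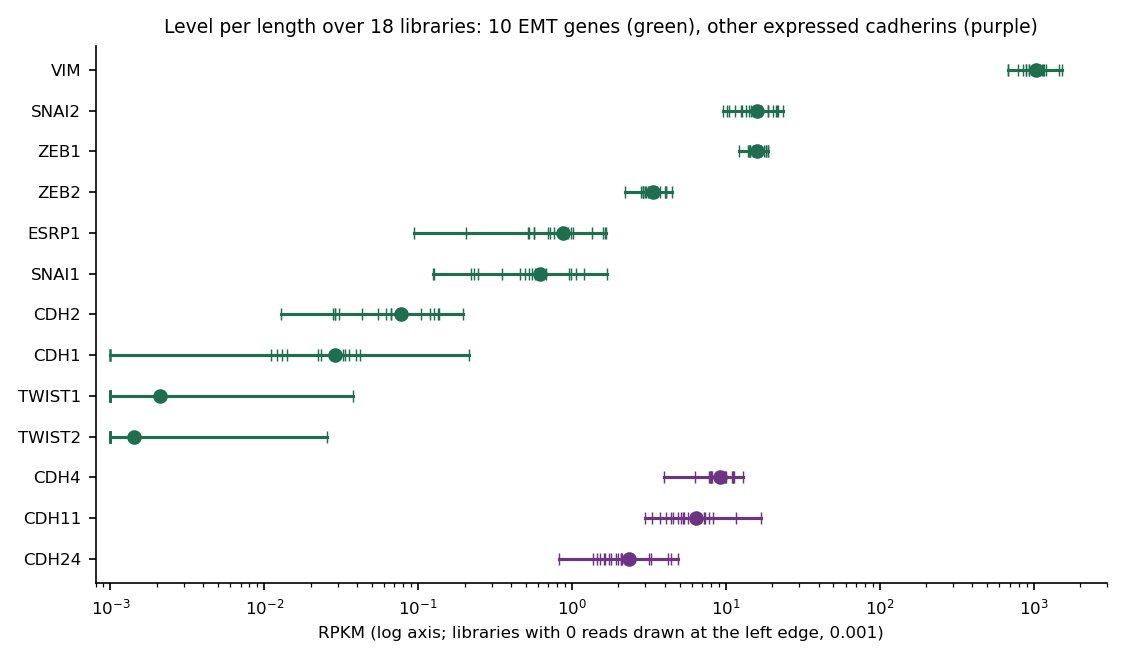
Level per kilobase (RPKM, log axis) of each member (green) and of 3 other cadherins (purple), with a tick per library, a line over the range and a dot at the mean of the 18 libraries. Libraries with 0 reads are drawn at 0.001. VIM lies near 1033 RPKM, SNAI2 and ZEB1 near 16.0, and both classical cadherins lie below ESRP1 and SNAI1.

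The stretches before the most upstream RefSeq starts of ZEB1 and VIM are shown because ZEB1 was the one member whose libraries did not overlap in a JAG1 comparison and VIM the most abundant one. Capitals mark the E-box CAGGTG, which is read from the opposite strand as CACCTG, the form of E-box bound by Snail and ZEB factors. Both sequences are the 250 bases before the start, plus strand, GRCh38.p14, from RefSeq.
ZEB1, chr10:31318167-31318416: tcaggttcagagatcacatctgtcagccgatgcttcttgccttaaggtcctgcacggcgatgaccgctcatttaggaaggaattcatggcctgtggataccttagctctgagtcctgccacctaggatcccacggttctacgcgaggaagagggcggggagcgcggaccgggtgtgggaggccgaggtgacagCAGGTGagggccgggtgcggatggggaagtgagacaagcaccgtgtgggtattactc
VIM, chr10:17227991-17228240: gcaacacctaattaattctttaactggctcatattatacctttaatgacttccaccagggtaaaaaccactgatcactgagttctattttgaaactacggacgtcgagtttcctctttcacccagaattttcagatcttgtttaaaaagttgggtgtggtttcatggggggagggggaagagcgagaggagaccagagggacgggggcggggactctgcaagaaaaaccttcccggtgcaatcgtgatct
The ZEB1 stretch held 1 such E-box, starting at position -57 from the transcription start, and the VIM stretch held none. Promoter windows of 300 bases (250 before and 50 after the start) were held for 5 of the 10 members, 12 windows in all. The motif, searched on both strands, was in 2 of these 12, both among the 7 windows of ZEB1. It was in 7231 of 35116 windows of all genes, or 20.6%. A match of letters is a description and does not show binding.

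VIM lies on chromosome 10 of hg38 (17228241 to 17237593, plus strand) and ZEB1 further along the same chromosome (31318495 to 31529814, plus strand). The other measured factors are ZEB2 on chromosome 2 (144364364 to 144521057, minus strand), SNAI2 on chromosome 8 (48917598 to 48921740, minus strand) and SNAI1 on chromosome 20 (49982980 to 49988886, plus strand). ESRP1 lies on chromosome 8 (94641074 to 94707466, plus strand), CDH1 on chromosome 16 (68737292 to 68835537, plus strand) and CDH2 on chromosome 18 (27932879 to 28177946, minus strand). Antisense genes overlap 3 members. VIM-AS1 was counted at 3.96 to 11.5 CPM and ZEB1-AS1 at 3.85 to 6.41 CPM, both small beside the sense genes. ZEB2-AS1 had 1 read in all libraries, and whether the counting used strand is not given in the sources used here.

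**Figure D2:**
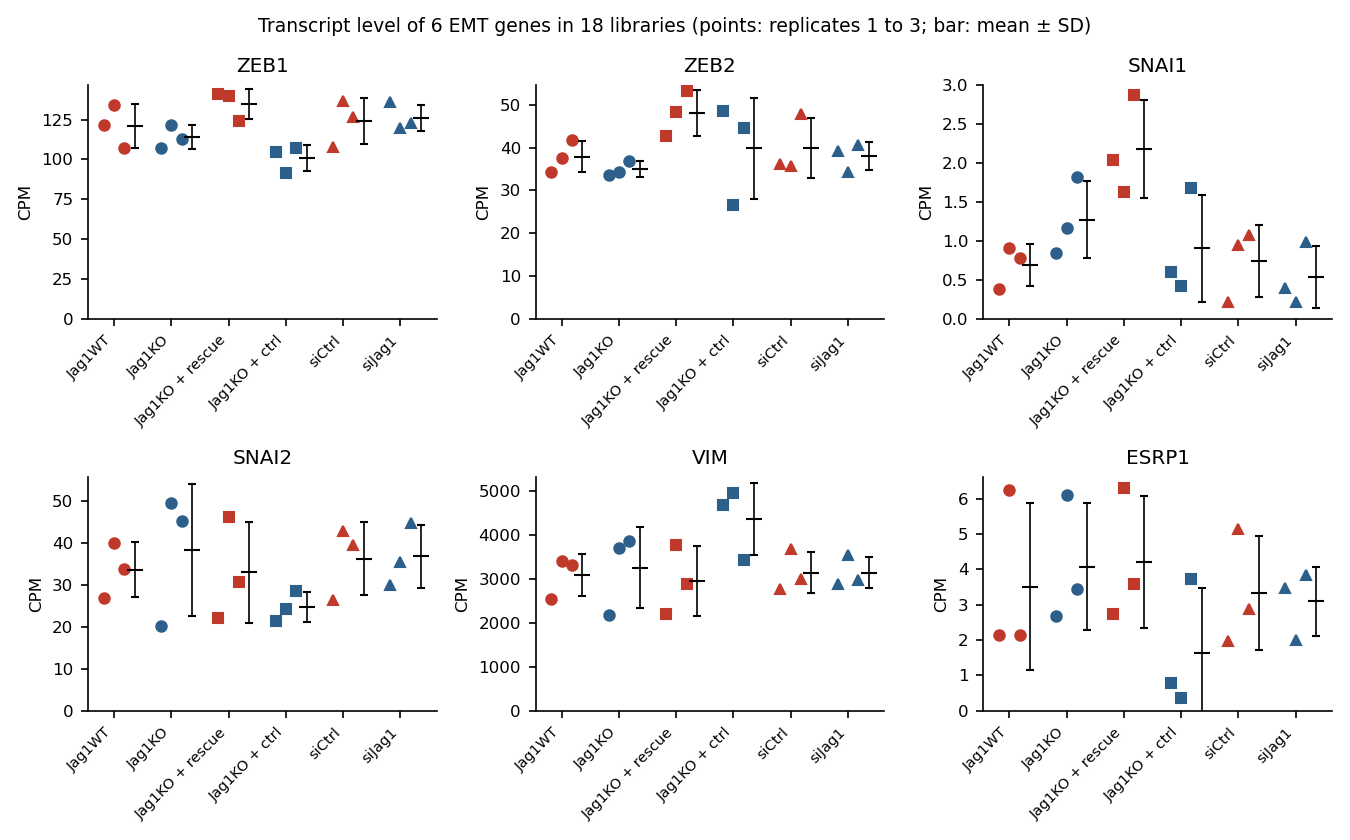
CPM of 6 members in each library (points, 3 per group), with the group mean ± SD as a bar beside them, red for groups with more JAG1 and blue for groups with less. The lower SD bar of ESRP1 in Jag1KO + ctrl is cut at 0. ZEB1 lies at 124 to 141 CPM in Jag1KO + rescue, above the 91.7 to 107 of Jag1KO + ctrl, and the other members overlap in each JAG1 pair.

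The removal of JAG1 from the parental line was compared first. In Jag1WT against Jag1KO, ZEB1 was 122, 134 and 107 CPM against 107, 122 and 113. ZEB2 was 34.4, 37.7 and 41.7 CPM in Jag1WT against 33.5, 34.4 and 37.0 in Jag1KO. SNAI2 was 27.0, 40.0 and 33.8 CPM against 20.2, 49.5 and 45.2. For each of the 3 factors the libraries of the 2 groups overlapped. VIM was 2545, 3408 and 3306 CPM in Jag1WT against 2184, 3698 and 3853 in Jag1KO. ESRP1 was 2.15, 6.24 and 2.15 CPM against 2.67, 6.10 and 3.44. In both groups replicate 2 held the highest ESRP1 value, and again the groups overlapped for both genes. SNAI1 had 6, 12 and 12 reads in Jag1WT against 13, 15 and 19 in Jag1KO, at 0.379 to 0.902 CPM against 0.848 to 1.82.

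In this comparison 5 of the 10 members passed the filter on low values (3 or more of the 6 libraries with over 1 CPM), and 0 were called by edgeR's quasi-likelihood test at an adjusted p below 0.05 and a fold above 1.5. Over all 12879 genes tested, 0.714% were called and the libraries of 13.8% did not overlap. The log2 fold change, positive where JAG1 was higher, was 1.71 for JAG1 (SE 0.219, adjusted p = 0.0162). It was 0.08 for ZEB1 (SE 0.114, edgeR adjusted p = 0.885) and 0.11 for ZEB2 (SE 0.126, edgeR adjusted p = 0.844). The 95% intervals of the fold ran from 0.882 to 1.27 for ZEB1 and from 0.885 to 1.32 for ZEB2. SNAI2 gave -0.19 (SE 0.318) with a fold between 0.526 and 1.45, VIM -0.08 (SE 0.236) with a fold between 0.651 and 1.38, and ESRP1 -0.23 (SE 0.494) with a fold between 0.388 and 1.87. Changes of 1.5-fold or more thus lay outside the intervals of ZEB1 and ZEB2, and of SNAI2 and VIM in the upward direction, but not of ESRP1. The JAG1 call was lost on leaving out Jag1WT replicate 1, 2 or 3 or Jag1KO replicate 3 (log2 1.82, 1.60, 1.69 and 1.68).

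Putting Jagged1 back into the edited cells was compared next, and no member was called. ZEB1 was 141, 140 and 124 CPM in Jag1KO + rescue against 105, 91.7 and 107 in Jag1KO + ctrl, so every rescue library was above every control library. ZEB2 was 42.7, 48.4 and 53.3 CPM against 48.6, 26.5 and 44.7, with the control libraries spread on both sides of the rescue libraries' lowest value. SNAI1, the gene for Snail, was 2.04, 1.63 and 2.87 CPM against 0.600, 0.419 and 1.68, which were 30, 23 and 49 reads against 10, 7 and 28. Control replicate 3 alone reached into the range of the rescue. SNAI2 was 22.2, 46.1 and 30.8 CPM in the rescue and 21.5, 24.2 and 28.5 in the control. VIM was 2193, 3771 and 2882 CPM against 4675, 4946 and 3414, with control replicate 3 again inside the rescue range. ESRP1 was 2.73, 6.29 and 3.58 CPM against 0.779, 0.360 and 3.73. For SNAI1, VIM and ESRP1 it was therefore the same library that closed the gap between the groups.

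Here 6 members passed the filter and 0 were called. The background was 0.00778% of 12850 genes called, which was JAG1 itself (log2 2.22, SE 0.177, edgeR adjusted p = 0.0229). At an unadjusted p below 0.05 stood 2 of the 6 members and 30.8% of all genes, and the libraries did not overlap for 1 of the 6 members and for 32.5% of all genes, so the members' counts were near the background. ZEB1 gave a log2 fold change of 0.41 (SE 0.131, fold 1.08 to 1.64, edgeR adjusted p = 0.112). SNAI1 gave 1.26 (SE 0.523, fold 1.04 to 5.55, edgeR adjusted p = 0.152). It passed the filter through all 3 rescue libraries and 1 control library. The rescue libraries alone would have met the filter, so this interval gives no support of its own. Without a filter SNAI1 gave 1.29 here (edgeR adjusted p = 0.155). The unfiltered value was -0.87 (SE 0.463, edgeR adjusted p = 0.708) in Jag1WT against Jag1KO, the opposite sign. It was 0.52 (SE 0.649, edgeR adjusted p = 0.914) in siCtrl against siJag1. SNAI2 gave 0.41 (SE 0.275, fold 0.857 to 2.07), ZEB2 0.26 (SE 0.232, fold 0.827 to 1.74) and ESRP1 1.36 (SE 0.751, fold 0.769 to 8.54). VIM had the opposite sign, -0.56 (SE 0.264, fold 0.444 to 1.03, edgeR adjusted p = 0.185).

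Jag1KO + ctrl replicate 3 decided these calls. Without it SNAI1 gave a log2 fold change of 2.08 (edgeR adjusted p = 0.0111) and ESRP1 2.86 (edgeR adjusted p = 0.00951), both past the thresholds, along with 3649 genes in all. In that fit both genes were below 1 CPM in the 2 control libraries left and passed the filter through the rescue group alone, so that these calls give no support of their own. ZEB1 then gave 0.46 (edgeR adjusted p = 0.0334) with a fold under 1.5, and VIM -0.71 (edgeR adjusted p = 0.0577). The library left out had 49.6 CPM of MKI67, against 302 and 512 in the other control libraries and 33.5, 129 and 34.3 in the rescue. The part of the growth state in the SNAI1, ESRP1 and VIM differences was not tested by design. With the proliferation level as a covariate in the fit of all libraries, an alternative chosen after seeing the data, VIM gave -0.21 (adjusted p = 0.377) and ZEB1 0.42 (adjusted p = 0.0254, fold under 1.5). JAG1 lost its call without any one of the other 5 libraries, at log2 values of 2.10 to 2.32.

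**Figure D3:**
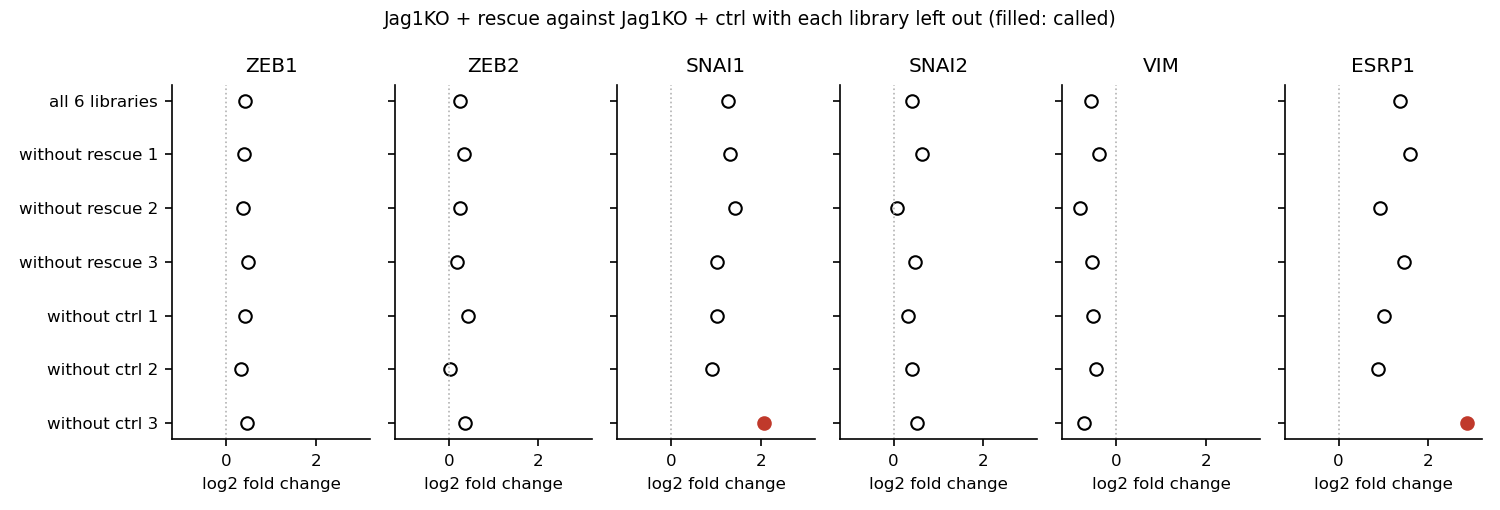
Log2 fold change of the members in Jag1KO + rescue against Jag1KO + ctrl with all 6 libraries and with each library left out in turn, 1 point per fit and filled where called. ESRP1 runs from 0.88 to 2.86 and SNAI1 from 0.92 to 2.08, each highest without Jag1KO + ctrl replicate 3, while ZEB1 stays between 0.34 and 0.48.

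Silencing of JAG1 by siRNA was the third comparison. ZEB1 was 108, 137 and 127 CPM in siCtrl against 136, 120 and 123 in siJag1, and ZEB2 was 36.1, 35.6 and 48.0 against 39.3, 34.4 and 40.6. SNAI2 was 26.4, 42.8 and 39.5 CPM in siCtrl against 30.0, 35.5 and 44.8 in siJag1. VIM was 2754, 3662 and 2988 CPM against 2888, 3539 and 2975. ESRP1 was 1.98, 5.13 and 2.89 CPM against 3.46, 2.00 and 3.85. The groups overlapped for all 5. SNAI1 had 3, 14 and 14 reads in siCtrl and 7, 4 and 14 in siJag1.

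None of these 5 was called, beside 0.0157% of 12774 genes called and 10.5% whose libraries did not overlap. The log2 fold changes were -0.02 for ZEB1 (fold 0.827 to 1.17), 0.07 for ZEB2 (0.827 to 1.34), -0.01 for SNAI2 (0.701 to 1.40), 0.00 for VIM (0.772 to 1.30) and 0.12 for ESRP1 (0.581 to 2.03). The intervals of ZEB1, ZEB2, SNAI2 and VIM left out a 1.5-fold change in both directions, and that of ESRP1 did not. JAG1 itself differed by 1.68 on the log2 scale (SE 0.191) with an edgeR adjusted p of 0.111, and by 1.69 with an adjusted p of 0.0179 with the replicate number as a block, which here paired the cultures. Blocking called 4 genes in place of 2, with no member among them. Without siJag1 replicate 2, the library with 434 CPM of MKI67, JAG1 gave 1.85 (edgeR adjusted p = 0.0159).

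**Figure D4:**
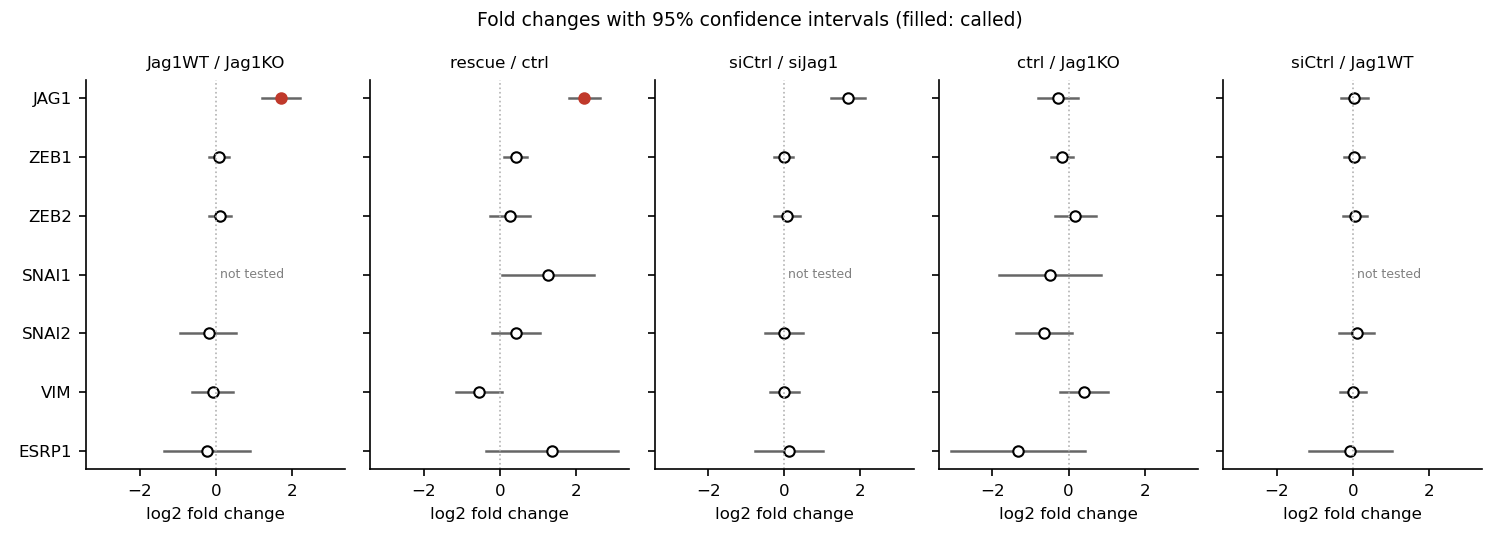
Log2 fold change with its 95% interval for JAG1 and each tested member in the 3 JAG1 comparisons and in the 2 comparisons of groups with like JAG1, filled where called. The members' intervals include 0 except those of ZEB1 (0.11 to 0.71) and SNAI1 (0.05 to 2.47) in the rescue comparison. The rescue libraries alone would have carried SNAI1 past the filter there.

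Comparisons of groups in which JAG1 was not altered on purpose gave the spread to set beside these values. Between Jag1KO + ctrl and Jag1KO, which differ by the empty plasmid and selection, 0 of 6 tested members and 0.00% of 12956 genes were called by edgeR, with 5.81% of genes at an unadjusted p below 0.05 and 10.1% not overlapping. The members' log2 values there, -1.34 for ESRP1, -0.65 for SNAI2, -0.49 for SNAI1, 0.41 for VIM, 0.18 for ZEB2 and -0.18 for ZEB1, had not passed the test. Without Jag1KO + ctrl replicate 3, ESRP1, which then passed the filter through Jag1KO alone, gave -2.83 (edgeR adjusted p = 0.0498), and 301 genes were called. These values and the rescue comparison share the Jag1KO + ctrl libraries. Between siCtrl and Jag1WT, 0 of 5 tested members and 0.00% of 12797 genes were called by edgeR, with 1.38% at an unadjusted p below 0.05 and 6.30% not overlapping. The members lay between -0.06 and 0.10.

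Averaged over the 3 JAG1 comparisons in a fit of all 18 libraries, ZEB1 gave a log2 difference of 0.15 (SE 0.0633, fold 1.01 to 1.22, edgeR adjusted p = 0.158). This was the one of 5 tested members at an unadjusted p below 0.05, as were 26.6% of all 12757 genes. ZEB2 gave 0.14, SNAI2 0.06, VIM -0.22 and ESRP1 0.41, and 0 members were called beside 0.933% of genes. The 3 KO-derived groups against the parental-derived ones at matched JAG1 gave values between -0.17 (SNAI2) and 0.14 (ZEB2), with 0 members called beside 2.89% of genes. Whether the comparisons differed from each other was tested directly. Jag1WT/Jag1KO minus rescue/ctrl gave -0.31 for ZEB1 (edgeR adjusted p = 0.222), -0.59 for SNAI2, 0.51 for VIM and -1.57 for ESRP1 (edgeR adjusted p = 0.292), with 6.84% of genes called. The rescue/ctrl difference minus the siRNA difference gave 0.41 for ZEB1 (edgeR adjusted p = 0.136), -0.59 for VIM and 1.22 for ESRP1, with 2.01% of genes called. The Jag1WT/Jag1KO difference minus the siRNA difference called 0.125% of genes. No member was called in any of the 3. Without Jag1KO + ctrl replicate 3, ESRP1 alone of the members passed in the 2 differences that include rescue/ctrl. It gave -3.06 (edgeR adjusted p = 0.0175) and 2.71 (edgeR adjusted p = 0.0360). Those fits called 2870 and 2411 of 12715 genes, so nothing is read from the ESRP1 calls. A test for any difference among the 6 conditions called 8.34% of genes and 0 members. ZEB1 gave F = 2.90 (edgeR adjusted p = 0.172). Its unadjusted p was below 0.05, as was that of 28.6% of all genes.

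By condition, ZEB1 was lowest in Jag1KO + ctrl at 101 ± 8.42 CPM (SD, n = 3) and highest in Jag1KO + rescue at 135 ± 9.52, with the other groups at 114 to 126. ZEB2 likewise was highest in Jag1KO + rescue, at 48.1 ± 5.35 CPM, with the other groups at 35.0 to 39.9. SNAI2 was lowest in Jag1KO + ctrl at 24.7 ± 3.52 CPM and otherwise 33.0 to 38.3. VIM was highest in Jag1KO + ctrl at 4345 ± 817 CPM and otherwise 2948 to 3245. SNAI1 ran from 0.531 ± 0.399 CPM in siJag1 to 2.18 ± 0.634 in Jag1KO + rescue. Neighbouring groups in the order of the means overlapped for each of these members, and so the order itself is not firm. Across single libraries the highest value was 1.54 times the lowest for ZEB1, 2.01 times for ZEB2, 2.26 times for VIM, 2.45 times for SNAI2, 13.5 times for SNAI1 and 17.5 times for ESRP1. In bulk RNA, fewer cells with a transcript and less of it per cell cannot be told apart.

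The classical cadherins were close to the limit of detection. CDH1 had 41 reads in all 18 libraries, with 2, 3 and 0 in Jag1WT, 1, 2 and 2 in Jag1KO, 17, 1 and 3 in Jag1KO + rescue, 2, 1 and 3 in Jag1KO + ctrl, 3, 0 and 1 in siCtrl and 0 in each siJag1 library. The 17 reads of Jag1KO + rescue replicate 1 made up most of its group's 21. CDH2 had 104 reads in all, from 1 to 16 per library, and stayed below 1 CPM everywhere. Its libraries held 1, 2 and 6 reads in Jag1WT against 5, 8 and 7 in Jag1KO, 2, 3 and 10 in Jag1KO + rescue against 11, 16 and 6 in Jag1KO + ctrl, and 2, 4 and 4 in siCtrl against 9, 6 and 2 in siJag1. Neither passed the filter in any comparison. Without a filter CDH2 gave log2 values of -1.34 (SE 0.697, edgeR adjusted p = 0.705) in Jag1WT against Jag1KO, -1.0 (SE 0.643, edgeR adjusted p = 0.371) in rescue against ctrl and -0.47 (SE 0.663, edgeR adjusted p = 0.934) in siCtrl against siJag1. CDH1 gave -0.19 (SE 1.06) and 1.90 (SE 0.994, edgeR adjusted p = 0.271) in the first and the second of these, and no fold is given against siJag1, where its libraries were at 0. Neither cadherin was called in these unfiltered tests, and the size of difference that counts this low could show was not tested.

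Among the other cadherins, 3 were expressed at 1 CPM or more on average. CDH4 (R-cadherin) averaged 62.1 CPM, CDH11 (OB-cadherin, common in mesenchymal cells) 38.6 and CDH24 12.0, or 9.12, 6.37 and 2.33 RPKM, each well above CDH1 and CDH2 per kilobase. None was called by edgeR in a JAG1 comparison fitted on its own 6 libraries. CDH11 was 18.1 to 26.7 CPM in Jag1KO + rescue against 47.0 to 102 in Jag1KO + ctrl, without overlap (log2 -1.76, SE 0.288, edgeR adjusted p = 0.104). CDH11 was called there by DESeq2 (-1.76, adjusted p = 1.04e-05) and by edgeR in the fit of all 18 libraries (-1.79, adjusted p = 0.00499) and with the proliferation covariate (-1.46, adjusted p = 0.00920). These settings called many genes there, 1583 of 12850 with DESeq2 and 2133 and 997 of 12757 in the other 2 fits. CDH24 was 4.23 to 8.34 against 10.7 to 24.9 CPM there (log2 -1.57, SE 0.373, edgeR adjusted p = 0.104). In the other comparisons CDH11 gave -0.26 (Jag1WT against Jag1KO) and 0.07 (siCtrl against siJag1). CDH24 gave -0.57 and -0.49 in these, and CDH4 -0.16 and -0.32, with -0.53 for CDH4 in the rescue comparison. In the pooled contrast CDH24 gave -0.89, CDH11 -0.66 and CDH4 -0.34 (edgeR adjusted p = 0.0596, 0.0664 and 0.164), and 0 were called. All 3 had an unadjusted p below 0.05 there, as did 26.6% of all genes. The Jag1WT/Jag1KO difference of CDH11 minus its rescue difference was 1.53 (edgeR adjusted p = 0.0450), beside 6.84% of genes called. The rescue difference minus the siRNA difference was -1.86 (edgeR adjusted p = 0.0460), beside 2.01% of genes called. Each of these calls was lost in 13 of the 18 fits that left out 1 library, with values of 1.22 to 1.77 and -2.17 to -1.55, and both held without Jag1KO + ctrl replicate 3. Without that library CDH11 was also called in the rescue comparison (-2.0, edgeR adjusted p = 0.00305), in a fit that called 3649 of 12690 genes.

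ESRP1 and VIM were also set beside the growth state of each library. The 4 libraries with 115 to 207 CPM of MKI67, replicate 2 of Jag1WT, Jag1KO, Jag1KO + rescue and siCtrl, held the 4 highest ESRP1 values, 5.13 to 6.29 CPM. The 4 libraries with 289 CPM or more of MKI67 held 0.360 to 3.44 CPM of ESRP1. The same 4 held 3539 to 4946 CPM of VIM, and the other 14 held 2184 to 3771. The values of ESRP1 thus did not run in 1 direction with MKI67, and the cause was not tested. The 4 libraries highest in ESRP1 were all replicate 2, so growth state and replicate number cannot be told apart in them.

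**Figure D5:**
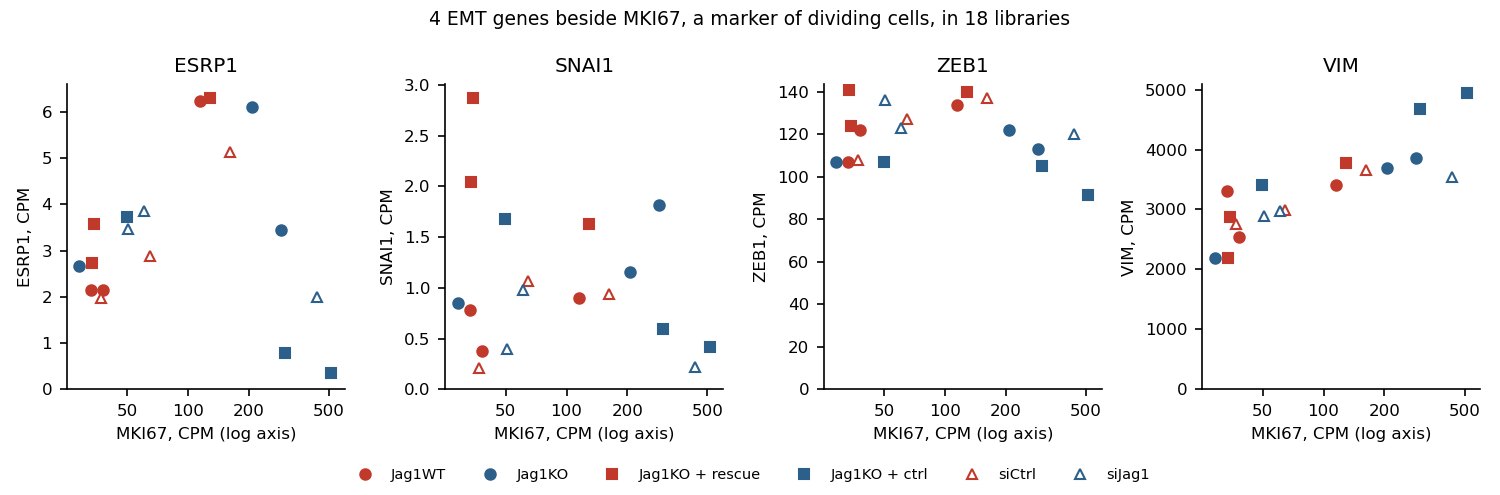
CPM of members against MKI67 CPM (log axis) in the 18 libraries, red for groups with more JAG1 and blue for groups with less. ESRP1 is highest, 5.13 to 6.29 CPM, in the 4 libraries with 115 to 207 CPM of MKI67, all of them replicate 2.

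The transcripts whose profile over the 18 libraries was most like each member's were taken by Pearson's r of log2(CPM + 1) among 12757 genes, as a description. The libraries share groups, growth state and depth. ZEB1 was nearest to CDK6 (r = 0.908), PRRC2C (0.903) and CDV3 (0.874). ZEB2 was nearest to BHLHE40 (0.822), DENND5A (0.777) and SOS2 (0.773). SNAI2 was nearest to SERPINB8 (0.953), E2F7 (0.944) and ANKRD50 (0.924), and VIM to LXN (0.951), BEX3 (0.951) and C6orf223 (0.950). ESRP1 was nearest to MAP1LC3B (0.970), its near-identical copy MAP1LC3B2 (0.969), which can share reads with it, and SLC4A7 (0.961). Among the members, ESRP1 and ZEB1 gave r = 0.728, a positive value for a repressor and its known target, ESRP1 and SNAI2 0.698, and ZEB1 and VIM -0.358. ZEB1 and JAG1 gave 0.579.

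The wider EMT network was described with lists of genes. Of 22 other EMT transcription factors, such as the PRRX, FOXC and TCF families, 16 were tested in each JAG1 comparison and 0 were called, with median log2 fold changes of -0.05 (Jag1WT against Jag1KO), 0.03 (rescue against ctrl) and 0.00 (siCtrl against siJag1). The medians of all genes tested were -0.01, -0.00 and -0.01. Of the 21 partners and cofactors through which Snail and ZEB proteins repress, such as the CtBP and HDAC proteins, 19 were tested and 0 called. Of the 13 regulators of Snail and Slug turnover, 12 were tested and 0 called, and of 11 splicing regulators 11 were tested and 0 called. The 15 guardians of the epithelial state (GRHL, OVOL, ELF and others) had 9, 9 and 6 tested and 0 called, with medians of -0.29, 0.47 and 0.03. Some genes of the lists passed in the other contrasts. Those named here were picked after their values were seen, and not all that passed are named. Of the other EMT transcription factors, PRRX1 passed the test for any difference among the 6 conditions (F = 5.58, edgeR adjusted p = 0.0480), as did 8.34% of all genes. In the pooled contrast ELF3, an epithelial ETS factor and 1 of 7 tested guardians, was higher with more JAG1 (log2 1.17, SE 0.225, edgeR adjusted p = 0.0165). FOXA1 was higher in KO-derived than in parental-derived groups (log2 2.25, edgeR adjusted p = 3.46e-05). Its level was low, at 0.261 to 4.91 CPM with a median of 1.29. It was under the filter in siCtrl against siJag1 and in siCtrl against Jag1WT, and so passed mainly through the KO-derived groups. The keratins and junction genes called in that contrast were lower. Of 11 tested keratins 4 were called lower, and of 27 tested junction genes 2, with 0 higher, beside 2.89% of all genes called. The lists as a whole did not share a direction. Above 0 were 3 of the 11 keratins, 16 of the 27 junction genes and 5 of the 7 guardians. The corepressor CTBP1 passed the test of Jag1WT/Jag1KO minus rescue/ctrl (0.70, edgeR adjusted p = 0.0196), as did the methyltransferase PRMT5 (-0.59), the kinase GSK3B (0.47) and the splicing regulator QKI (-1.02). That test called 6.84% of all genes. CTBP1 and PRMT5 were among 19 tested partners, GSK3B among 12 turnover regulators and QKI among 11 splicing regulators. Other lists held calls there too. Of 30 tested mesenchymal genes 4 were higher and 2 lower, and 3 of 27 junction genes and 2 of 11 keratins were higher. CTBP1 also passed the test of rescue/ctrl minus the siRNA comparison (-0.62, edgeR adjusted p = 0.0494), beside 2.01% of all genes.

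In Jag1WT against Jag1KO, 6 genes of the lists were called, beside 0.714% of all 12879 genes tested. With 0 to 2 called per list, nothing is read from a list as a whole. Of 36 epithelial junction and surface genes, 27 were tested and 1 was higher in Jag1WT, LSR, a protein of tricellular junctions, at 1.26 to 2.48 CPM against 0.191 to 0.309 (log2 2.94, SE 0.445, edgeR adjusted p = 0.0322). It passed the filter through Jag1WT alone, and it was also low in both plasmid groups, at 0.283 to 0.542 CPM, and it gave 0.01 in siCtrl against siJag1. Of 35 keratins, 11 were tested and 2 were higher, KRT79 (log2 2.87, SE 0.337, edgeR adjusted p = 0.0122) and KRT81 (log2 1.10, SE 0.179, edgeR adjusted p = 0.0420). Of 40 mesenchymal genes, 30 were tested and 2 were higher, the integrin subunits ITGA5, a fibronectin receptor chain (log2 0.87, edgeR adjusted p = 0.0234), and ITGB3 (log2 1.22, edgeR adjusted p = 0.0451). Of the 22 proliferation genes 1, the replication helicase subunit MCM2, was lower (log2 -0.78, edgeR adjusted p = 0.0442). The calls of KRT79, KRT81, ITGA5, ITGB3 and MCM2 were lost on leaving out any one library except Jag1KO replicate 1, with log2 values between 0.80 and 3.15 for the 4 that were higher and between -0.86 and -0.70 for MCM2. In rescue against ctrl KRT79 gave 1.96, KRT81 0.44, ITGA5 0.23, ITGB3 -0.32 and MCM2 -0.49. In siCtrl against siJag1 they gave 1.12, 1.02, 0.51, 0.75 and -0.32. The pooled contrast, which includes the Jag1WT and Jag1KO libraries, called 0.933% of genes. It called KRT79 (1.97, edgeR adjusted p = 0.000941) and KRT81 (0.85, edgeR adjusted p = 0.0222). ITGA5 (0.53, edgeR adjusted p = 0.0145) had a fold under 1.5 there. LSR lost its call without Jag1KO replicate 2 (3.19) or 3 (2.85) and was under the filter without any one Jag1WT library.

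In the rescue and siRNA comparisons, each fitted on its own 6 libraries, 0 genes of the lists were called by edgeR. In rescue against ctrl the 11 tested partners of vimentin in the intermediate filament network had a median of -0.59, with 10 of 11 below 0, and the 25 tested junction genes a median of -0.27. The proliferation genes were below 0 in 22 of 22 in each of the 3 comparisons, with medians of -1.15, -1.39 and -0.69, and 0 were called in the rescue and siRNA comparisons. Their summed level was 2269, 3173 and 777 CPM in Jag1KO + ctrl against 801, 1128 and 714 in Jag1KO + rescue, 661, 1037 and 663 in Jag1WT against 753, 1761 and 2075 in Jag1KO, and 691, 1250 and 806 in siCtrl against 711, 2900 and 763 in siJag1. The part of this difference in the vimentin and junction medians was not tested. Catenins and cadherin adaptors, the cytoplasmic partners of cadherins, had 13 of 16 tested, 0 called in each of the 3 JAG1 comparisons and medians of -0.01, -0.04 and -0.04.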

How the data were processed

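Libraries had been made by the authors with a stranded TruSeq mRNA kit. Per the labels, reads were mapped to hg38 and unique reads counted per gene with featureCounts (version and strand setting not given in the sources used here), with edgeR 3.28.0 in R 3.6.1 and MultiQC 1.5. The deposited values were raw counts, a composition-scaled signal (CPM after TMM scaling by the authors) and deposited RPKM, used for levels between genes. The 3 RPKM columns whose names matched no sample were not used. Rows without a symbol (292 of 21411, at most 0.0442% of counts) were left out.

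Counts were tested with edgeR 4.0.16 (quasi-likelihood, TMM, R 4.3.3), each pair on its own 6 libraries for genes above 1 CPM in at least 3. Pooled contrasts, differences between comparisons and the test over 6 conditions used all 18 libraries (above 1 CPM in at least 9). p-values were adjusted by Benjamini-Hochberg over all genes tested, and intervals are 95% intervals from the same fits. A gene was called at an adjusted p below 0.05 and a fold above 1.5, with no fold threshold for differences and the 6-condition test. The study's own test was another one (ROTS on log2 values). Alternatives were limma 3.58.1 on log2(CPM + 1) or log2(CPM + 0.5), DESeq2 1.42.0, RLE factors, no filter, replicate blocks, one fit of 18 libraries and each library left out. The scripts were tested on simulated data. The named genes were all members, JAG1, list genes called in a main comparison (at most 4 per list and comparison, by p), the expressed cadherins and the 3 most similar genes per member. MKI67, PRRX1, ELF3, FOXA1, CTBP1, PRMT5, GSK3B and QKI were named after their values were seen. Members and lists were chosen with earlier results of these data known.

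The replicate numbers paired siCtrl with siJag1 and with Jag1WT: the deviations of same-numbered cultures from their group means correlated at 0.544, 0.523 and 0.264, and at 0.597, 0.715 and 0.213. Jag1WT and Jag1KO cultures went together by number in replicates 1 and 2 (0.634 and 0.670) but not in replicate 3 (-0.010). The labels do not say what a number shares. p-values measure the spread between cultures only. Promoter sequences are from RefSeq. Protein sequences and the promoters of the other 5 members were not used here.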

Additional observations from a re-analysis of the deposited data

How the results depend on the processing

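With all libraries kept, the alternatives gave 62 counts of members called over the comparisons, each of them 0, and of 301 member fold changes recomputed under them 293 kept their direction. Those that turned were -0.01 (limma) and -0.03 (replicate block) for ESRP1 in KO-derived against parental-derived groups and, with the proliferation level as a covariate (chosen after seeing the data), 0.03 for SNAI2 and 0.24 for VIM in Jag1WT against Jag1KO, 0.05 for SNAI2 in siCtrl against siJag1, -0.08 for VIM in siCtrl against Jag1WT, 0.05 for VIM in the pooled contrast and 0.12 for VIM in Jag1WT/Jag1KO minus siRNA. The cause was not tested. ZEB1 in rescue against ctrl had an adjusted p under 0.05 with a fold under 1.5 in the fit of all 18 libraries (0.39, edgeR adjusted p = 0.0205), and DESeq2 gave 0.42 (adjusted p = 0.0546). The call of KRT81 and MCM2 in Jag1WT against Jag1KO was lost in the fit of all 18 libraries (edgeR adjusted p = 0.133 and 0.471).

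The number of all genes called moved more. It was 92 in Jag1WT against Jag1KO, and 235 with DESeq2, 157 without a filter, 282 with the replicate block and 247 with the proliferation covariate. In rescue against ctrl it was 1, and 2 with limma at either pseudocount or without a filter, 3 with the block, 1583 with DESeq2 (37.2% of them higher in the rescue), 2133 in the fit of 18 libraries and 997 with the covariate. In siCtrl against siJag1 it was 2, and 0 with limma, 24 with DESeq2, 8 without a filter, 4 with the block, 7 in the fit of 18 and 13 with the covariate. In Jag1KO + ctrl against Jag1KO it was 0, and 13 with DESeq2, 1 in the fit of 18 and 16 with the covariate. In siCtrl against Jag1WT the block gave 1. The pooled contrast gave 119, and 600 with the block. Jag1WT/Jag1KO minus rescue/ctrl gave 873, 1933 with the block and 2687 with the covariate. Rescue/ctrl minus siRNA gave 257, and 145 with limma, 160 with RLE factors, 1141 with the block and 1095 with the covariate. The test over 6 conditions gave 1064, 2857 with the block and 2453 with the covariate. In Jag1WT against Jag1KO same-numbered cultures correlated at 0.634, 0.670 and -0.010, and those of other numbers at -0.675 to 0.421. Replicates 1 and 2 thus went together by number there, and replicate 3 did not. In rescue against ctrl same-numbered cultures correlated at -0.212, 0.341 and 0.241. The block called no member.

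On leaving out 1 library, 561 of 609 member fold changes kept their direction. Members called ran from 0 to 2 in rescue against ctrl, from 0 to 1 in Jag1KO + ctrl against Jag1KO and in both differences that include rescue/ctrl, and were 0 elsewhere. All genes called ran from 8 to 933 (Jag1WT against Jag1KO), 0 to 3649 (rescue against ctrl), 0 to 4 (siCtrl against siJag1), 0 to 301 (Jag1KO + ctrl against Jag1KO), 51 to 854 (pooled), 120 to 2870, 1 to 19 and 2 to 2411 (the 3 differences) and 410 to 3414 (6 conditions). The ranges that reached or crossed 0 were, in Jag1WT against Jag1KO, -0.00 to 0.16 for ZEB1, -0.51 to 0.04 for SNAI2, -0.30 to 0.07 for VIM and -0.92 to 0.19 for ESRP1. In siCtrl against siJag1 they were -0.09 to 0.06 for ZEB1, -0.08 to 0.15 for ZEB2, -0.15 to 0.16 for SNAI2, -0.11 to 0.11 for VIM and -0.33 to 0.38 for ESRP1. In siCtrl against Jag1WT they were -0.05 to 0.12 for ZEB1, -0.09 to 0.14 for ZEB2, -0.04 to 0.29 for SNAI2, -0.12 to 0.10 for VIM and -0.52 to 0.63 for ESRP1. In the pooled contrast SNAI2 ran from -0.05 to 0.14, and in KO-derived against parental-derived VIM ran from -0.02 to 0.18 and ESRP1 from -0.36 to 0.19. ZEB2 ran from -0.29 to 0.09 in Jag1WT/Jag1KO minus rescue/ctrl and from -0.05 to 0.33 in rescue/ctrl minus siRNA. In Jag1WT/Jag1KO minus siRNA the ranges were -0.04 to 0.20 for ZEB2, -0.49 to 0.05 for SNAI2, -0.31 to 0.07 for VIM and -1.05 to 0.11 for ESRP1. Depth limits CDH1, CDH2, TWIST1, TWIST2 and SNAI1, whose reads per library did not exceed 49.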
